A study of Rattus norvegicus with 6 samples.

Results

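The glutathione transferases described here are the theta class enzymes Gstt1, Gstt2 and Gstt3, the kappa class enzyme Gstk1, the omega class enzyme Gsto1 and the membrane-bound enzymes Mgst1, Mgst2 and Mgst3. All array probes whose accession maps to one of these 8 genes were taken, whatever their values. This gave 10 probes of 61453 analysed, for 7 of the 8 genes, among 15645 genes named on the array. No probe was matched to Gstt3, which is not analysed here. Total RNA came from the renal cortex of 6 male Sprague-Dawley (Crl:CD(SD)) rats of an outbred stock, which were purchased when 5 weeks old and kept on a basal diet. In the dibromoethane group 3 rats received 75 mg/kg/day of 1,2-dibromoethane for 4 weeks, and in the corn oil group 3 control rats received corn oil for 4 weeks. Each animal gave 1 single-colour Agilent array, and every value refers to whole cortex tissue.

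Glutathione transferases join the tripeptide glutathione to electrophilic compounds. For most substrates this step leads to excretion as a mercapturate. Dihaloethanes such as 1,2-dibromoethane are an exception: after conjugation, which theta class enzymes catalyse, the remaining bromine is lost and a reactive episulfonium ion forms that can alkylate DNA. The same compound is also oxidised by cytochrome P450. The membrane-bound transferases belong to the MAPEG family (membrane-associated proteins in eicosanoid and glutathione metabolism) and are not related in sequence to the soluble enzymes.

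Levels are given as log2 of the background-subtracted signal relative to the array's own 75th percentile, which stands at 0. They can be compared between arrays for 1 probe and not between probes. All 10 probes were well above background on all 6 arrays, and none was saturated. Between 59.2% and 67.8% of all analysed probes were well above background on the dibromoethane arrays, and between 61.4% and 66.7% on the corn oil arrays. The arrays lay on 3 slides: slide 1 held dibromoethane replicate 2 and corn oil replicates 1 and 2, slide 2 held dibromoethane replicate 1 and corn oil replicate 3, and slide 3 held dibromoethane replicate 3. All 10 proximal tubule markers examined, such as Slc34a1 and Lrp2, were well above background on every array, as the labelled tissue would have. With 3 arrays per group, the number of animals limits the precision of every difference.

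No transferase probe passed the test between dibromoethane and corn oil rats. Of the 10 probes 0 reached an adjusted p of 0.05 in limma over all 37273 tested probes, where 0.0268% of all tested probes did. The lowest adjusted p among them was 0.36. At an unadjusted p under 0.05 limma counted 4 of the 10 probes, for Gstt1, Gstk1, Mgst1 and Mgst2, against 11.3% of all tested probes. The same 4 probes had groups that did not overlap, against 19.4% of all tested probes. Taken as 1 probe per gene, 4 of 7 genes had a higher mean in dibromoethane rats and 3 a lower one, with a median log2 fold change of 0.09 beside -0.02 over all 11435 genes, of which 45.6% had a higher mean. Probes of 1 gene share a transcript and are not separate observations.

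**Figure D1:**
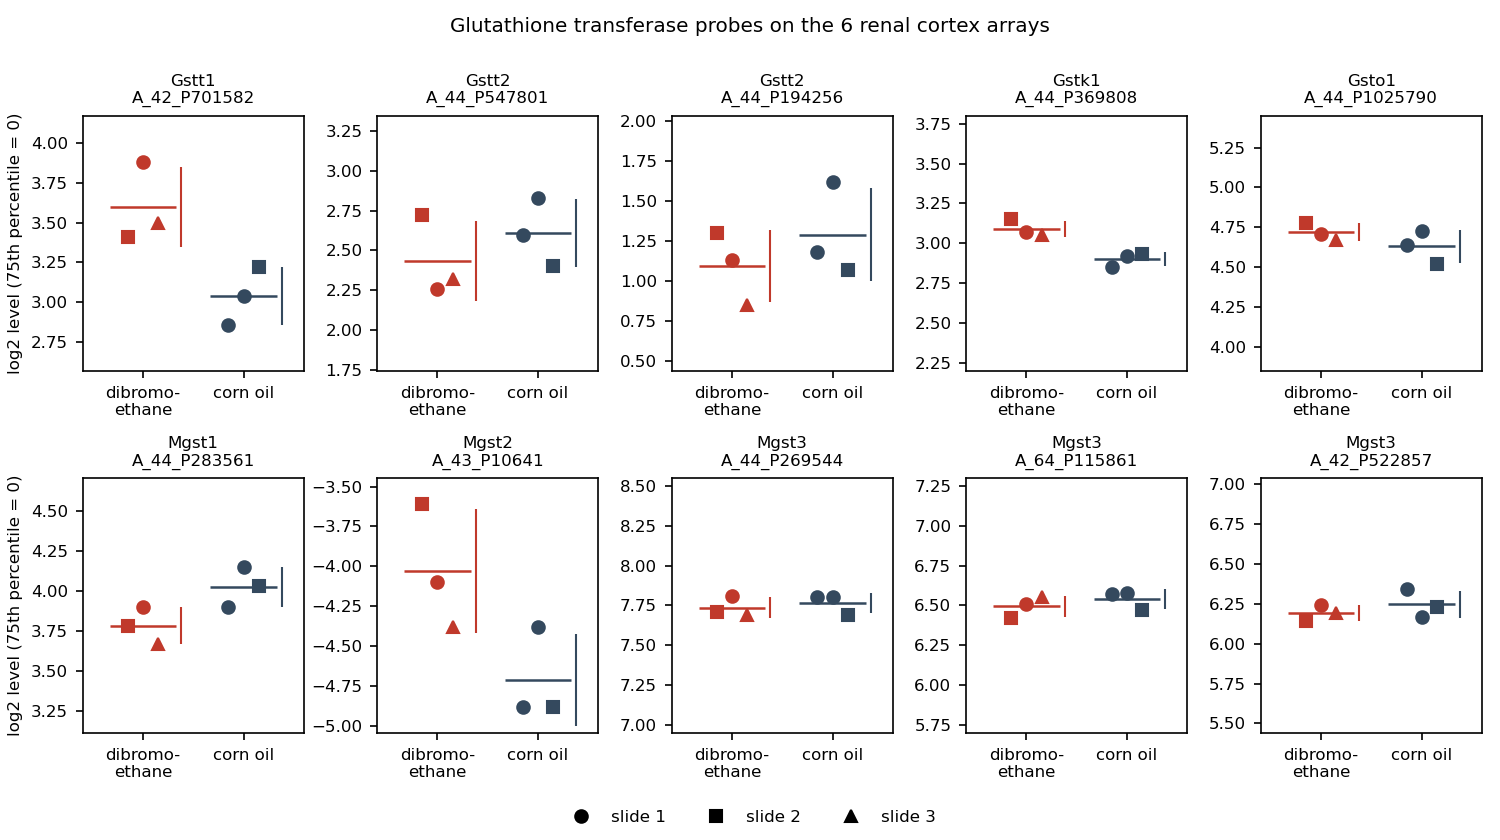
The 10 glutathione transferase probes, 1 panel each, with the log2 level relative to the array's 75th percentile on the vertical axis (each panel spans the same range of log2 units) and the dibromoethane and corn oil groups on the horizontal axis. Points are arrays with their shape giving the slide, horizontal lines are group means and vertical lines 1 SD (n = 3 each); Gstt1 and Gstk1 separate clearly, Mgst1 and Mgst2 only just, and the Mgst3 probes sit level.

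Gstt1, the theta class enzyme best known for conjugating dihaloalkanes, had a higher mean in dibromoethane rats. Its probe stood at 3.41, 3.88 and 3.50 in dibromoethane replicates 1 to 3, against 2.86, 3.04 and 3.22 in corn oil replicates 1 to 3. All 3 dibromoethane arrays lay above all 3 corn oil arrays, with a gap of 0.189 between the closest pair, and dibromoethane replicate 2 was the highest. The means were 3.59 ± 0.25 in dibromoethane rats and 3.04 ± 0.18 in corn oil rats (SD, n = 3 each). This is a 1.47-fold difference (log2 fold change 0.55, SE 0.16, 95% interval 0.17 to 0.93, limma adjusted p = 0.36), which did not pass. The size differed between slides: it was 0.93 within slide 1 and 0.19 within slide 2, with 1 dibromoethane array on each. Without dibromoethane replicate 2 the log2 fold change was 0.41.

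Gstt2, a second theta class transferase, has 2 probes on the array, and both gave a lower mean in dibromoethane rats with overlapping groups. The first, A_44_P547801, read 2.72, 2.26 and 2.32 in dibromoethane replicates 1 to 3, against 2.60, 2.83 and 2.40 in corn oil replicates 1 to 3. The second, A_44_P194256, read 1.30, 1.13 and 0.85 in dibromoethane rats, against 1.18, 1.62 and 1.07 in corn oil rats. On both probes dibromoethane replicate 1 was the highest of its group, and corn oil replicate 2 was the highest of all 6 arrays. The log2 fold changes were -0.18 (SE 0.17, 95% interval -0.58 to 0.22) and -0.20 (SE 0.18, -0.64 to 0.25), with a limma adjusted p of 0.7 for both. The sign was not the same on both slides. Within slide 1 the probes gave -0.46 and -0.27, and within slide 2 they gave 0.32 and 0.23. The size also turned on single arrays: without corn oil replicate 2 the values were -0.07 and -0.03, without corn oil replicate 3 they were -0.29 and -0.31, and without dibromoethane replicate 1 they were -0.32 and -0.30. A_44_P547801 gave -0.09 without dibromoethane replicate 2, and A_44_P194256 gave -0.08 without dibromoethane replicate 3. Every one of these values kept the negative sign, and none passed in limma.

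The changes of the 2 theta genes were set against each other within each array. The log2 fold change of Gstt1 exceeded that of Gstt2 by 0.73, but the ranges of the within-array difference overlapped between the groups (exact two-sided permutation p = 0.2, where 3 against 3 arrays allow no p under 0.1). A test of this size cannot pass, so it does not decide whether the 2 genes changed alike. Theta transferases lie side by side on rat chromosome 20: in the GRCr8 assembly the protein-coding genes between Mif and Cabin1 include, in order, Gstt2, Gstt4, Gstt1, Gstt3 and Ddt. The Gstt4 probe was at background on all 6 arrays. Of 15 genes listed as neighbours of the theta locus 12 were tested, 9 with a higher and 3 with a lower mean in dibromoethane rats, and 0 passed (limma, with 1 at an unadjusted p under 0.05). Over all 11435 genes taken as 1 probe each, 45.6% had a higher mean and 11.8% an unadjusted p under 0.05. The median log2 fold change of the neighbours was 0.15. Mmp11, a matrix metalloproteinase, had a value of 0.62 (SE 0.19) and Mif, a cytokine with tautomerase activity, one of 0.20 (SE 0.09), while Ddt, the tautomerase next to Gstt3, had -0.06 (SE 0.07).

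**Figure D2:**
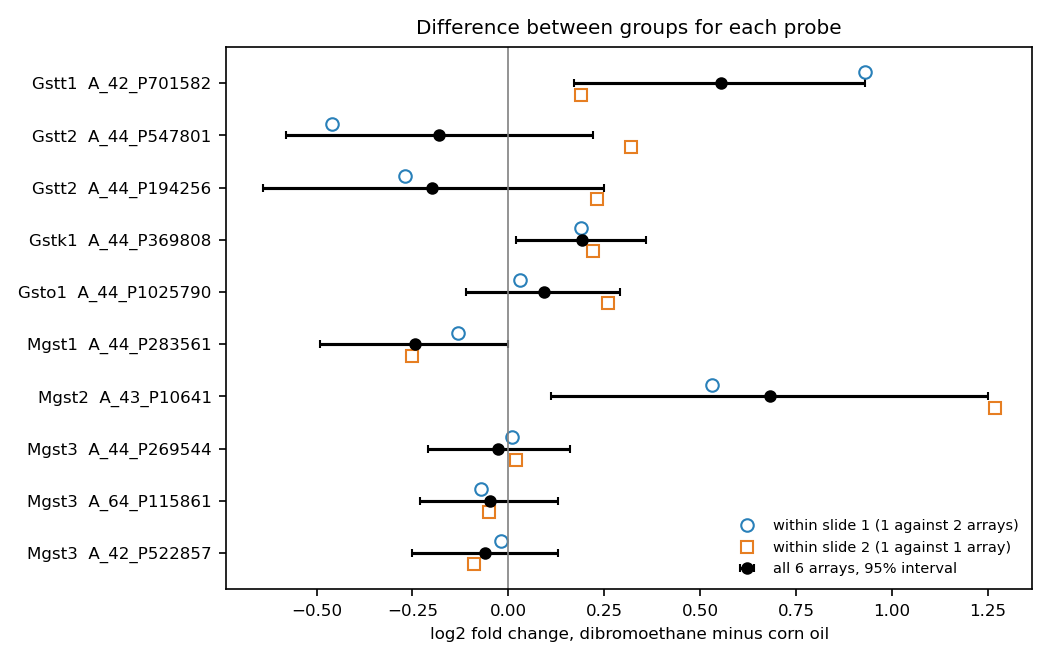
Log2 fold change of each probe (horizontal axis, dibromoethane minus corn oil), with the black points and bars giving the limma estimate and its 95% interval over all 6 arrays. Open circles are differences within slide 1 and open squares within slide 2; they lie apart for Gstt1 (0.93 and 0.19) and on opposite sides of 0 for both Gstt2 probes, and close together for Gstk1 (0.19 and 0.22).

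Gstk1, the kappa class transferase of mitochondria and peroxisomes, showed a small difference with little spread. It stood at 3.15, 3.07 and 3.05 in dibromoethane replicates 1 to 3, against 2.85, 2.92 and 2.93 in corn oil replicates 1 to 3. The groups did not overlap, and the closest arrays were 0.123 apart. The 1.14-fold difference (log2 fold change 0.19, SE 0.07, 95% interval 0.02 to 0.36) did not pass (limma adjusted p = 0.402). It was 0.19 within slide 1 and 0.22 within slide 2, so that both slides gave about the value of all arrays.

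Gsto1, the omega class enzyme, which reduces dehydroascorbate and protein-glutathione disulfides, differed less than its replicates did. Its probe read 4.78, 4.71 and 4.67 in dibromoethane rats, against 4.64, 4.73 and 4.52 in corn oil rats. Corn oil replicate 2 lay within the dibromoethane range. The log2 fold change was 0.09 (SE 0.08, 95% interval -0.11 to 0.29, limma adjusted p = 0.69). It was 0.04 without corn oil replicate 3 and 0.14 without corn oil replicate 2.

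Mgst1, the microsomal transferase of the endoplasmic reticulum and outer mitochondrial membrane that also reduces lipid hydroperoxides, had a slightly lower mean in dibromoethane rats, 3.78 ± 0.11 against 4.03 ± 0.12 in corn oil rats (SD, n = 3 each). It read 3.78, 3.90 and 3.67 in dibromoethane replicates 1 to 3, against 3.90, 4.15 and 4.03 in corn oil replicates 1 to 3. Dibromoethane replicate 2 and corn oil replicate 1 were only 0.006 apart, so the groups barely separate. The log2 fold change of -0.24 (SE 0.10, 95% interval -0.49 to 0.00) did not pass (limma adjusted p = 0.442). It was -0.13 within slide 1 and -0.25 within slide 2.

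Promoter sequence is shown for Gstk1 and Mgst1, the pair of genes with small differences of opposite sign and non-overlapping groups. RefSeq sequence of the GRCr8 assembly was found for 5 of the 8 genes, Gstt3, Gstk1, Gsto1, Mgst1 and Mgst3. Bases are given 5′ to 3′ on the gene's strand and end at the gene's outermost annotated start. Capitals mark matches to GGGCGG, the GC box bound by Sp family factors, on either strand.
Gstk1 (chr4:72085364-72085531, plus strand): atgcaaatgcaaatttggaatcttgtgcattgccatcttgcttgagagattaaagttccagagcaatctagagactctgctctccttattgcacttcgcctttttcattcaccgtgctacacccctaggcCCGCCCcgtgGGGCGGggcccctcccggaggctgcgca
Mgst1 (chr4:172760680-172760929, plus strand): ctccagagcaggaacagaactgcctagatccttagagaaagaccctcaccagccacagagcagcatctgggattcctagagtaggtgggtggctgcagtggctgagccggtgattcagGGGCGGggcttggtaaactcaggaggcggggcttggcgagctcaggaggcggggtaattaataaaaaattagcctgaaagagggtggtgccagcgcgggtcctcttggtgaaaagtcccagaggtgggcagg

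Over the 250 bases before the RefSeq table's start, a GC box was found in 4 of the 5 transferase promoters, Gstk1, Gsto1, Mgst1 and Mgst3. The share was 30.5% of all 33469 rat promoters. Only 96 of these bases for Gsto1, 127 for Mgst3 and 0 for Gstt3 lie before the gene's outermost annotated start. The Gsto1 and Mgst3 matches lie past that start, and the share over all promoters was not limited to bases before it. The 250 bases were 53.2% to 58.8% G or C in the 5 genes, against a median of 51.2% in all promoters. Gstk1 holds 1 match on each strand and Mgst1 a single match on the plus strand. The antioxidant response element core TGACNNNGC was found in 0 of the 5 on either strand, and in 10.1% of all promoters. The nuclear receptor half-site AGGTCA was likewise found in 0 of the 5, and in 14.1% of all promoters. The dioxin response element core GCGTG was found in 1, Mgst3, once on each strand, and in 25.9% of all promoters. Both Mgst3 matches lie past its outermost annotated start. These are matches of letters in a short window and say nothing of binding.

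Mgst2, which conjugates glutathione to leukotriene A4 and reduces hydroperoxides, had the largest log2 fold change of the 10 probes, from a dim probe. Its processed signal was 77.4, 48.6 and 43.6 units in dibromoethane replicates 1 to 3, against 29.1, 39.1 and 29.3 units in corn oil replicates 1 to 3. The lowest signal counted as well above background was 18.9 to 33.3 units on the dibromoethane arrays and 19.5 to 25.5 units on the corn oil arrays. Relative to the 75th percentile the levels were -3.61, -4.10 and -4.38 in dibromoethane rats, against -4.88, -4.38 and -4.88 in corn oil rats. Dibromoethane replicate 1 was clearly the highest, while dibromoethane replicate 3 lay only 0.002 above corn oil replicate 2. The log2 fold change was 0.68 (SE 0.23, 95% interval 0.11 to 1.25, limma adjusted p = 0.392). With normexp background correction, which adds an offset and shrinks differences of dim probes, it was 0.30, below the 0.53 that Gstt1 had there. It was 0.53 within slide 1 and 1.27 within slide 2.

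Mgst3, a membrane transferase with peroxidase activity on lipid hydroperoxides, had means close together in both groups on all of its 3 probes. The probe A_44_P269544 read 7.71, 7.81 and 7.69 in dibromoethane replicates 1 to 3, against 7.80, 7.80 and 7.69 in corn oil replicates 1 to 3. The log2 fold changes of the 3 probes were -0.03, -0.05 and -0.06, each with an SE of 0.07 to 0.08. Their 95% intervals together span -0.25 to 0.16. The groups overlapped on each probe, and under quantile normalization the 3 values were 0.09, 0.04 and 0.02. RefSeq also lists an Mgst3-like gene, Mgst3l1, and binding of these probes to its transcripts was not tested.

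Within the membrane family the changes of the 3 genes were compared by the same within-array difference. Mgst2 exceeded Mgst1 by 0.93 and Mgst3 by 0.71 in log2 fold change, and Mgst1 lay 0.22 under Mgst3 (difference -0.22). In each of these pairs the groups did not overlap, and the exact two-sided permutation p was 0.1, the smallest that 3 against 3 arrays allow. For Mgst2 and Mgst1 this was fixed in advance, since their probes already separate in opposite directions. Mgst3 was nearly level, so the pairs with Mgst3 largely restate the separation of the single probes. The share of all gene pairs without overlap was not computed. Among single tested probes it was 19.4%, with the Mgst1 and Mgst2 probes among them. Over the 4 pairs compared, the theta pair included, the Benjamini-Hochberg adjusted permutation p was 0.133 for these 3 and 0.2 for the theta pair. Since no pair could pass at this number of arrays, the test does not decide whether the changes differ.

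The other genes of glutathione conjugation were counted from lists, with 1 probe per gene. None of their members passed over all probes in limma, where 0.0262% of all 11435 genes taken as 1 probe each did, and the shares at an unadjusted p under 0.05 are read beside 11.8% of the same genes. Among the other cytosolic transferases of the alpha, mu, pi and other classes 15 of 19 listed genes were tested, 11 with a higher and 4 with a lower mean in dibromoethane rats. Their median log2 fold change was 0.22, with 3 of 15 at an unadjusted p under 0.05. One of the 3, Gstm3, entered the test only through the dibromoethane arrays; among the 14 genes above background on all 6 arrays 10 had a higher mean, 2 had an unadjusted p under 0.05 and the median was 0.21. Gstm3, a mu class enzyme, was measured above background on all 3 dibromoethane arrays but on none of the corn oil arrays. With each corn oil array set no lower than its lowest signal counted as well above background, dibromoethane rats had a 2.0-fold higher mean. The limit of this spot itself was not measured, and limma on the measured values did not pass (adjusted p = 0.246). Gsta3, an alpha class enzyme, had a log2 fold change of 0.26 (SE 0.10). Alpha and mu transferases resemble one another, and how far a probe reads a relative's transcript was not tested. The other MAPEG genes gave -0.39 (SE 0.11) for Alox5ap, the activating protein of 5-lipoxygenase, 0.47 (SE 0.31) for the leukotriene C4 synthase Ltc4s, and 0.08 (SE 0.07) for the prostaglandin E synthase Ptges. Of these 3, 1 had an unadjusted p under 0.05.

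The list for glutathione synthesis and reduction, which also holds enzymes that use or break down glutathione, had a median of -0.09 over 12 tested genes. Of these 3 were higher and 9 lower, with 1 at an unadjusted p under 0.05. Chac2, which degrades glutathione, had -0.21 (SE 0.07) and the peroxidase Gpx1 -0.24 (SE 0.10). Gclc, the catalytic subunit of the rate-limiting enzyme of glutathione synthesis, had the lowest value of that list, -0.88 (SE 0.38, limma adjusted p = 0.46). It read 5.02, 5.66 and 4.11 in dibromoethane replicates 1 to 3, against 5.68, 6.06 and 5.69 in corn oil replicates 1 to 3. Dibromoethane replicate 3 was thus the lowest by far, and dibromoethane replicate 2 lay close to the corn oil range. Enzymes of the mercapturate pathway, which process the conjugates, were 8 higher and 7 lower of 15, with a median of 0.02 and 1 at an unadjusted p under 0.05. One of the 8, Ggt6, entered the test only through the dibromoethane arrays. Among the 14 genes above background on all 6 arrays 7 had a higher mean, and the median was 0.01. Acy1, an aminoacylase, had 0.19 (SE 0.06) and Ggt1, the gamma-glutamyltransferase that cleaves glutathione conjugates, 0.22 (SE 0.12). Of 7 tested genes listed for the oxidative route 5 had a higher mean, with a median of 0.12 and 1 at an unadjusted p under 0.05. That gene was Ephx1, microsomal epoxide hydrolase (0.59, SE 0.09, limma adjusted p = 0.217). It is a hydrolase and not an oxidising enzyme, and a part of it in the metabolism of this compound was not tested. Aldh2, a mitochondrial aldehyde dehydrogenase, had 0.18 (SE 0.08).

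**Figure D3:**
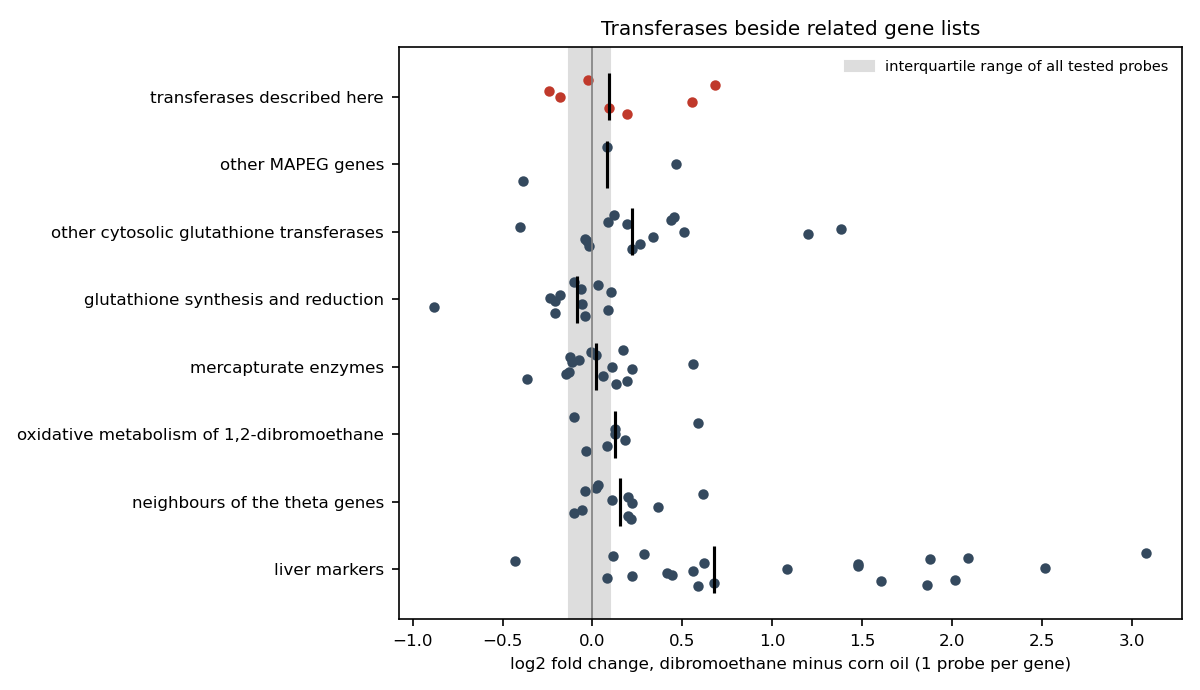
Log2 fold change (horizontal axis, dibromoethane minus corn oil) of each tested gene in 8 lists, 1 probe per gene, with the list's median as a black line and the interquartile range of all tested probes as a grey band (-0.13 to 0.10). The transferases described here spread from -0.24 for Mgst1 to 0.68 for Mgst2, and the liver markers lie mostly to the right, with a median of 0.68 (0.59 over the 17 above background on all 6 arrays).

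No marker of any cell type listed passed over all probes in limma, and the lowest adjusted p among them was 0.242. Of 21 tested liver markers 20 had a higher mean in dibromoethane rats, with a median log2 fold change of 0.68 and 7 at an unadjusted p under 0.05. Of the 21 tested, Apoa2, Fgg, Serpina1 and Mup4 were above background on all dibromoethane arrays but on only 2 corn oil arrays. Among the 17 above background on all 6 arrays 16 had a higher mean, 5 had an unadjusted p under 0.05 and the median was 0.59. The summed linear level of the liver markers was 142 to 194 times the 75th percentile on dibromoethane arrays, against 121 to 140 times on corn oil arrays. Most of each sum is 1 bright probe, for Serpinc1 (0.11, SE 0.09). The liver enzymes Cps1 and Tat stayed at background on all 6 arrays. The median level over these markers was 0.49, -0.16 and -0.59 in dibromoethane replicates 1 to 3, against -1.17, -0.28 and -0.92 in corn oil replicates 1 to 3. Mgst2 followed the same order of arrays within the dibromoethane group, and it too was highest in corn oil replicate 2 among the controls. The same held for Gsto1 and for the Gstt2 probe A_44_P194256, so this was not particular to Mgst2. Gstk1 had that order within the dibromoethane group only. For Gstt1, dibromoethane replicate 1 was the lowest array of the dibromoethane group. These are orders of 3 arrays, and what they share was not tested. Single liver markers did not all follow the median: F2 read 1.51, 2.18 and 2.74 in dibromoethane replicates 1 to 3. Proximal tubule markers had a lower mean for 8 of 10 genes, 4 of them at an unadjusted p under 0.05, with a median of -0.09 and a summed level of 1550 to 1590 in dibromoethane rats, against 1670 to 1820 in corn oil rats. Blood cell markers had a median of -0.43, with a lower mean for 4 of 5 and 3 at an unadjusted p under 0.05. Of 7 tested macrophage markers 5 had a lower mean and 3 an unadjusted p under 0.05, with a median of -0.14. Those 3 were the complement genes C1qa (-0.54, SE 0.13), C1qb (-0.48, SE 0.09) and C1qc (-0.41, SE 0.11), while the macrophage genes Cd68 and Csf1r had -0.03 and 0.05. The summed level of the macrophage markers was 87.2 to 93.8 in dibromoethane rats, against 85.7 to 96.1 in corn oil rats. Most of that sum is 1 bright probe, for Lyz2 (0.08, SE 0.09), so it says little of the other macrophage markers. Cd163 was at background on all 6 arrays. The part of these markers in the transferase values was not tested, and in whole tissue fewer cells of a type and less RNA per cell cannot be told apart.

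**Figure D4:**
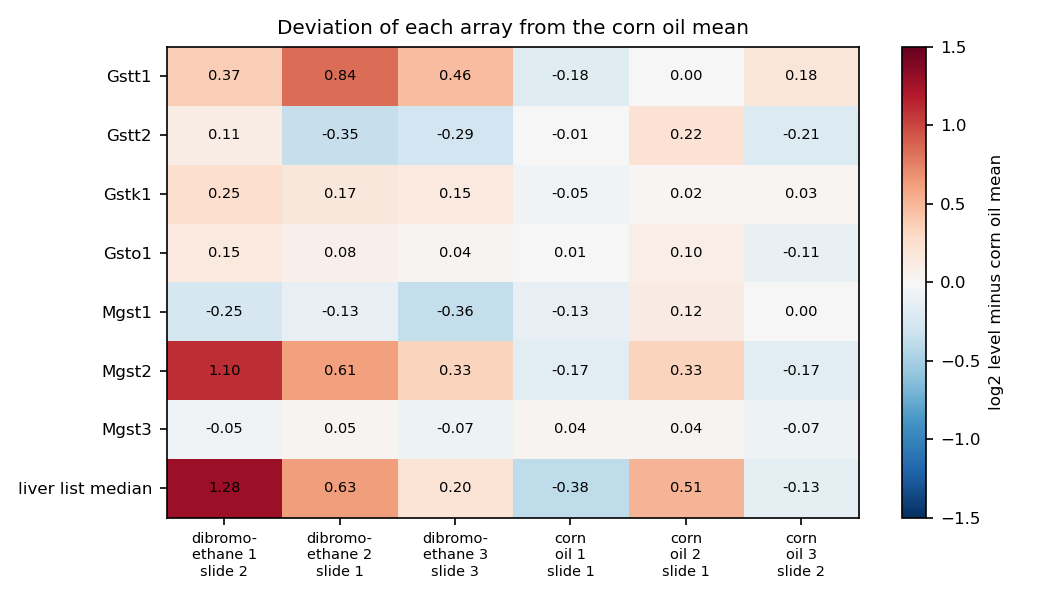
Deviation of each array's log2 level from the corn oil mean, for the brightest probe of each of the 7 genes and for the median of 21 liver markers (rows), on the 6 arrays with their slides (columns). Mgst2, Gstk1, Gsto1 and the liver median are highest in dibromoethane replicate 1 (1.10, 0.25, 0.15 and 1.28), while Gstt1 is highest in dibromoethane replicate 2 (0.84).

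The genes most like each theta gene over the 6 arrays were found by Pearson correlation of log2 levels, as a description with no test. Any difference between the groups is part of these values, though the Gstt2 groups overlapped. For Gstt1 they were Kcnip1 (r = 0.979), RT1-CE13 (r = 0.977) and Adh4 (r = 0.976), of 11428 genes searched. Their log2 fold changes were 0.66, 0.26 and 1.67. An r of at least 0.9 with Gstt1 was found for 104 genes. For Gstt2, by its brighter probe, they were Dnajb3 (r = 0.988), Atp8b2 (r = 0.987) and Etv4 (r = 0.986), with 44 genes at an r of at least 0.9.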

How the data were processed

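Agilent Feature Extraction 10.7.1.1 made the deposited spot intensity values and subtracted the background, per the file headers. The authors' deposited series table gives these intensity values as a share of the 75th percentile (linear, r = 1.000 with the scanner values as log2; column medians 0.110, 0.105 and 0.107 for dibromoethane and 0.101, 0.102 and 0.112 for corn oil replicates 1 to 3). The submitters' processing notes name Agilent Feature Extraction 10.7. From these, log2 processed signal minus the 75th percentile over 61453 probes was computed; 1439 control spots and 84 spike-in probes were left out, and 1 to 11 outlier spots per array set to missing. Accessions were matched to RefSeq symbols (GRCr8, used for names and neighbours; the array grid names rn4), for 28206 probes. Probes well above background on all arrays of a group, 37273, were compared in limma 3.58.1 (R 4.3.3) with no covariate and a two-sided test, adjusted over all of them by Benjamini-Hochberg. All member probes are named, and of each list of related genes the called genes and the 2 with the smallest p; Ddt, Gclc, Ptges, Mgst3l1 and the marker genes named were chosen after their values or presence were seen. The members, lists and tests were chosen with earlier results of these data known. The labels describe separate animals. Same-numbered replicates of the groups did not deviate together in all pairs (r = -0.20, 0.24 and 0.13). The code was tested on simulated data. The tables hold median and not mean spot signals, so normexp (offset 50) used those.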

Additional observations from a re-analysis of the deposited data

How the results depend on the processing

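Of 204 transferase values recomputed under alternatives, 199 kept their sign and side of the threshold, 0 newly passed and 5 changed sign. Those 5 were Mgst3 values: 0.087 (A_44_P269544), 0.019 (A_42_P522857) and 0.037 (A_64_P115861) with quantile normalization, and 0.016 (A_44_P269544) with slide as a fixed block and 0.016 on only slides with both groups; the cause was not tested. Many of the 204 signs could not change. The changes of filter, 1 probe per gene, trend and robust, and the scan day and replicate blocks leave each log2 fold change as it was. The deposited series table holds the same signals. A kept sign in these alternatives therefore adds no support. No transferase probe passed in any of the 21 alternatives (limma), and the lowest adjusted p was 0.255. The count of 10 probes past the threshold among all tested was 6 with normexp, 1 with no filter (61452 probes tested), 2 with scan day as a fixed block and 20 with trend and robust. It was 0 with slide as a fixed block and on only slides with both groups, where 2 residual degrees of freedom remain and limma counted 4394 and 4390 probes at an unadjusted p under 0.05. Leaving out 1 array gave 1 to 12: 4, 1 and 12 without corn oil replicates 1 to 3, and 1, 2 and 7 without dibromoethane replicates 1 to 3. Both groups have replicates numbered 1 to 3, and the replicate block gave 0 probes past the threshold in limma (2 residual degrees of freedom, 4454 at an unadjusted p under 0.05), with Gstt1 at 0.55 (adjusted p = 0.384) and no transferase passing. Dim signal limits Mgst2, and its value also turned on single arrays. It ranged from 0.30 with normexp to 0.86 without dibromoethane replicate 3, and was 0.47 without dibromoethane replicate 1.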
